A study of Mus musculus with 3 samples.

Results

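The ligands and receptors of axon guidance were read in enteric neurons of Ednrb-/- mice. The genes are those whose whole symbol is that of a semaphorin, plexin, neuropilin, ephrin, Eph, Slit, Robo, netrin, Unc5 or Dcc, by the pattern Sema, Plxn, Nrp, Efn, Eph, Slit, Robo, Ntn, Unc5 or Dcc with its number and letter. This gives 69 of the 33353 genes listed, of which 35 are ligands and 34 are receptors. The samples were 3 Wnt1-tdT; Ednrb-/- mice at postnatal day 14, labelled Ednrb-KO, a model of Hirschsprung disease with 1 library per mouse. The labels give the strain as C57BL/6, and the study's methods give some of the parent stocks as mixed. All 3 mice were labelled with the Ednrb knockout and came from the cross with the Wnt1-driven Cre and the tdTomato reporter, so no control group is part of the data. Cells were dissociated from the longitudinal muscle with the myenteric plexus of the small intestine and sorted for tdTomato, which in this cross marks cells that once expressed Wnt1, the neural crest and its descendants. Droplet libraries of single cells were sequenced, and the table holds 2060 cells retained as neuronal in the authors' filtering, 354, 1050 and 656 in mice 1, 2 and 3.

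Guidance cues are read by growing axons as attraction or repulsion. Semaphorins bind plexins, and most of the secreted class 3 semaphorins need neuropilins to do so, while Sema3e binds Plxnd1 directly. Ephrins sit on the cell surface and bind Eph receptor kinases, with signals into both cells. Slits repel axons through Robos, and netrins act through Dcc, mostly as attractants, and through Unc5 receptors as repellents. In the developing gut the same systems are known to act on neural crest cells and on the extrinsic fibres that reach the bowel, and several members stay expressed in mature neurons.

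Each level is the number of unique molecules (UMIs) of a gene per 10000 UMIs of all genes, summed over the cells of a mouse, and each share is the percentage of cells with at least 1 UMI. The libraries held 1526256, 10358118 and 6412495 UMIs, with medians of 3734.5, 9599.5 and 9578.5 UMIs per cell, so mouse 1 was the shallowest. 2 cell barcodes occurred in more than 1 library. UMIs of Ednrb, the targeted gene, were present at 1.82, 2.54 and 1.98 per 10000 in mice 1, 2 and 3, in 61.2% of cells. The libraries read 3′ ends and no control mice are at hand, so this level does not check the deletion. The table also held signal of other cell types. In 331 cells the share of smooth muscle markers detected was at least that of neuronal markers, and in 339 cells the share of glial markers was, against 1390 cells in which the neuronal markers led. The 10 smooth muscle markers summed to 87.7 UMIs per 10000 in mouse 1 against at most 20.4 in mice 2 and 3, and the 10 glial markers to 22.8, 30.3 and 23.4, with none of either list at 0. The 20 neuronal markers summed to 118 to 129 in the 3 mice.

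Of the 69 genes, 67 had a UMI in the table, and 61 had 20 UMIs or more. Ntn5 and Robo3 had 0 UMIs, and Ntn3, Epha3, Sema7a, Sema3g, Epha1 and Robo4 had 1 to 11. On average over the mice, 33 of the genes were detected in at least 10% of cells and 61 in at least 1%. A cell held a median of 5, 10 and 9 different guidance genes in mice 1, 2 and 3. After every cell was thinned to 3000 UMIs, which left out 78, 55 and 45 shallower cells, the median was 4 in each mouse. Where shares of a class in thinned cells are given below, the class was called again on the thinned cells, so they are not the same cells as the class at full depth. Cells that lost their UMI of Nmu in thinning count as Nmu-negative there. Together the genes gave 32917 UMIs, of which Epha5 alone held 19.8% and the 10 highest 59.3%.

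The promoters of 4 genes from both sides of the class comparisons, with an entry in the table, are shown first. Epha5 and Epha8 encode receptors for ephrin-A ligands and stood higher in the Nos1 and Etv1 classes, and Slit2 and Slit3 encode Robo ligands and stood higher in the Chat and Bnc2 classes. The sequences are the 250 bases before the start of each gene in RefSeq on GRCm38.p6, written 5′ to 3′ in the direction of transcription. They lie at chr5:84417383-84417632 on the minus strand for Epha5, chr4:136956817-136957066 on the minus strand for Epha8, chr5:47982905-47983154 on the plus strand for Slit2 and chr11:35121206-35121455 on the plus strand for Slit3. Capitals mark each GC box, searched as GGGCGG on both strands, with overlapping matches joined.
Epha5: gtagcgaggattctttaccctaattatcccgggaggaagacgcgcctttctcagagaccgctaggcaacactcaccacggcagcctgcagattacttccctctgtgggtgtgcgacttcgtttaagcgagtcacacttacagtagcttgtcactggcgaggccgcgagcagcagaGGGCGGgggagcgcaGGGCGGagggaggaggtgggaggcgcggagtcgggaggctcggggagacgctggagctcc
Epha8: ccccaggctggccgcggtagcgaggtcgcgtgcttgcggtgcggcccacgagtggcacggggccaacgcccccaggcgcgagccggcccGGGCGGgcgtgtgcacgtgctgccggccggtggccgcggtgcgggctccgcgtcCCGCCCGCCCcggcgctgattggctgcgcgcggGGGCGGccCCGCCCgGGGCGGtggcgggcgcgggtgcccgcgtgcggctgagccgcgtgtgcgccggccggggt
Slit2: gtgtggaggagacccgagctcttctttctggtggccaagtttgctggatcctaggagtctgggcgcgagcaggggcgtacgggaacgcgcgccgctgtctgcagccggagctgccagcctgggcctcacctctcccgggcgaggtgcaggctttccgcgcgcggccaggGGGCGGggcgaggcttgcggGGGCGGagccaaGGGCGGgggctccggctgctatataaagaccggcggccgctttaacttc
Slit3: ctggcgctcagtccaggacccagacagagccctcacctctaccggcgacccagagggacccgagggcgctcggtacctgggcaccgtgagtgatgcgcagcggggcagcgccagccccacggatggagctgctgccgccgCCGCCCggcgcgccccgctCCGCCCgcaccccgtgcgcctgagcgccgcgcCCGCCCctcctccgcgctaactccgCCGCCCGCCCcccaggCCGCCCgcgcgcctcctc
All 4 windows held a GC box, as did 44 of the 59 guidance genes with an entry in the table (74.6%) and 32.7% of all 32851 promoters of that length. GC content was 62.4%, 84%, 69.6% and 78.8% for Epha5, Epha8, Slit2 and Slit3. Etv1 is a transcription factor of the ETS family, so the ETS core CCGGAA was searched on both strands as well. It was in 7 of the 59 guidance genes (11.9%) and in 12% of all promoters, and in none of the 4 windows shown. The E-box CAGCTG, a palindrome, was in 12 of the 59 (20.3%) and in 13% of all promoters, and likewise in none of the 4. A guidance gene was counted if any of its entries held the motif, while the share of all promoters is over single entries. The shares are thus not in the same unit, and that of the guidance genes can come out higher. A match describes the letters of the window only.

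Among the ligands, Sema6d, a membrane semaphorin, had the highest level over all cells, with 0.950, 1.03 and 1.15 UMIs per 10000 in mice 1, 2 and 3. Efna5, a ligand of EphA receptors, followed at 0.799, 0.880 and 0.880, and Slit2 at 0.714, 0.813 and 0.958. Slit2 lay below Efna5 in mice 1 and 2 and above it in mouse 3, so Efna5 and Slit2 are not ranked against each other. The levels of Sema6d, Efna5 and Slit2 differed by little between the mice, while their order is that of molecules counted at the 3′ end and was not corrected for transcript length. Sema4d, a ligand of Plxnb1, stood at 0.393, 0.492 and 0.482. Sema3c, a secreted ligand of neuropilins, stood at 0.629 in mouse 1 against 0.321 and 0.296, and in the glial marker cells of all mice it reached 0.622, with 34.2% of those cells positive (95% exact interval 29.2% to 39.5%) against 18.2% of the neuronal marker cells (16.2% to 20.3%). Its level in all cells thus moved with the mouse, and the part of the non-neuronal cells in that was not tested.

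Among the receptors, Epha5 stood far above all others, with 4.73, 3.55 and 3.33 UMIs per 10000 and a mean of 3.87 ± 0.754 (SD, n = 3 mice). Its gene spans chr5:84054761-84417382 on the minus strand of GRCm38 in GENCODE M21. Epha5 was detected in 51.2% ± 1.70 (SD, n = 3) of cells, and in 40.6% ± 4.17 of cells thinned to 3000 UMIs. Nrp2 and Nrp1, the co-receptors of class 3 semaphorins, had means of 1.50 ± 0.0602 and 0.663 ± 0.0646 (SD, n = 3). Plxnb1 reached 0.813 ± 0.0342, and Plxna4, which pairs with neuropilins, 0.478 ± 0.111. Dcc, the netrin receptor, lay near the lower end, with 0 UMIs in mouse 1 and 0.0174 and 0.0187 UMIs per 10000 in mice 2 and 3. In mouse 1 a count of 0 allows up to 0.0197, so Dcc there was not detectable at this depth rather than absent.

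The other members filled a range of low levels, given here as means over the mice in UMIs per 10000 and likewise without a correction for length. Among the other semaphorins, Sema6a (0.273), Sema3b (0.255), Sema4c (0.218) and Sema4b (0.217) led, and Sema5a stood at 0.301 in mouse 1 against 0.154 in mouse 3 and less in mouse 2. Sema3a, the best known repellent of sensory axons, was low at 0.0304, in 1.97% of cells. Of the ephrins, Efnb3 (0.239), Efnb2 (0.204), Efnb1 (0.184) and Efna2 (0.123) followed Efna5, and Efna4, Efna3 and Efna1 stood at 0.0626 or below. The mean of Slit3 was 0.201 and that of Slit1 0.199, with Slit1 at 0.0852 in mouse 1 against 0.230 and 0.281. Ntn4 (0.388) was the main netrin, and Ntn1, the classical ligand of Dcc, stood at 0.190, 0.0618 and 0.0671 in the 3 mice.

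Among the other receptors, Plxna2, with 0.282, 0.386 and 0.533 in the 3 mice, stood highest. Ephb2 (0.395), Robo2 (0.382), Plxnb2 (0.347), Robo1 (0.242) and Epha4 (0.213) followed. Plxnc1, a receptor of Sema7a, was at 0.0328 in mouse 1 against 0.193 and 0.156. The Unc5 receptors lay in a low range, with Unc5a at 0.180, Unc5c at 0.164, Unc5b at 0.114 and Unc5d at 0.0812, each above Dcc. Apart from Epha5, the EphA receptors Epha7 (0.171), Epha8 (0.155) and Epha6 (0.0874) were detected in 5.39% to 10.2% of cells. The means of Slit3 and Slit1, and those of Sema4c and Sema4b, differed by less than their SD over the mice.

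**Figure D1:**
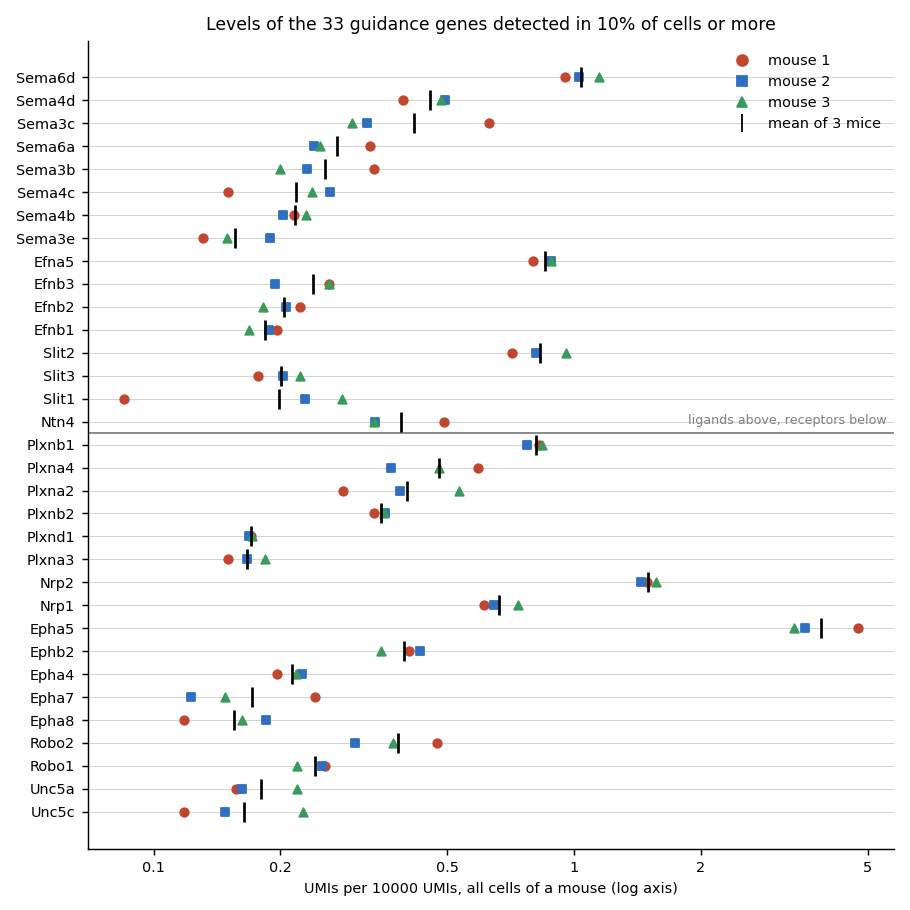
Levels of the 33 genes detected in at least 10% of cells on average, 16 ligands above the line and 17 receptors below it, in UMIs per 10000 UMIs on a log axis. Each symbol is a mouse and each bar the mean of 3 mice. Epha5 sits at 3.33 to 4.73 and the other receptors at 1.56 or below.

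UMIs of most members were also found in the cells led by other markers, so a positive cell is not by itself a neuron that expresses the gene. Epha5 was detected in 61.6% of neuronal marker cells, 37.5% of smooth muscle marker cells and 25.4% of glial marker cells, whose median depths were 9340.5, 5976 and 7500 UMIs. The levels of Epha5 in the 3 groups were 4.31, 2.14 and 1.29 UMIs per 10000. Slit2 was at 0.928, 0.973 and 0.414, so it stood about as high in the smooth muscle marker cells as in the neuronal ones. Nrp1 was at 0.679, 0.551 and 0.747. Each of these levels is 1 value per group with no spread between the mice, so the groups are not ranked for Nrp1. Free RNA and true expression in those cells cannot be told apart from these values.

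Summed by family, the Ephs held 6.19, 4.89 and 4.57 UMIs per 10000 in mice 1, 2 and 3, the semaphorins 3.96, 3.62 and 3.70, and the plexins 2.56, 2.57 and 2.91. The neuropilins held 2.10, 2.09 and 2.30, the ephrins 1.66, 1.70 and 1.76, and the Slits 0.976, 1.25 and 1.46. Robos, netrins and Unc5 receptors all summed to less than the Slits in every mouse. All ligands together came to 7.20 ± 0.202 UMIs per 10000 and all receptors to 11.2 ± 0.764 (SD, n = 3). Slits and Robos are a ligand and receptor pair that single cells can hold at once. At least 1 Slit and Robo1 or Robo2 were found in the same cell in 3.67%, 20.3% and 19.2% of cells. In cells thinned to 3000 UMIs the shares were 2.17%, 5.03% and 5.24%, lower in each mouse and still lowest in mouse 1.

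Neurons were then split by genes that mark branches of enteric neurons. Nos1 encodes the synthase of nitric oxide in inhibitory neurons and Chat the enzyme that makes acetylcholine in excitatory ones. Etv1 and Bnc2 are transcription factors, and Nmu is a peptide of a putative sensory class. A cell was Nos1-only with at least 1 UMI of Nos1 and 0 of Chat, and the other classes follow the same rule. This gave 130, 531 and 301 Nos1-only cells in mice 1, 2 and 3, 16, 148 and 113 Chat-only cells, 161, 594 and 320 Etv1-only cells, 28, 182 and 122 Bnc2-only cells, and 31, 80 and 89 Nmu-positive cells. The 5 nitrergic markers, Nos1 among them, summed to 73.8 to 123 in Nos1-only cells and 2.27 to 16.2 in Chat-only cells. The 5 cholinergic markers, Chat and Bnc2 among them, summed to 3.31 to 4.12 and 11.5 to 16.2. These sums hold the genes that define the classes. Of the other cholinergic markers, Slc18a3 was in 30.1% of Nos1-only and 74.0% of Chat-only cells. Slc5a7 was in 46.6% and 68.2%, and Tac1 in 37.2% and 62.1%. Chat itself was found in 18.4% of all cells, so a Nos1-only cell can still hold cholinergic genes.

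The classes share cells, so the comparisons are not independent of each other. Of the 962 Nos1-only cells, 748 were also Etv1-only, which is 77.8% of the former and 69.6% of the 1075 Etv1-only cells. Chat-only and Bnc2-only cells had 131 cells in common, 47.3% and 39.5% of each. Of the 200 Nmu-positive cells, 85 were Nos1-only and 30 Chat-only. The 16 Chat-only cells of mouse 1 held 66148 UMIs in all, so 1 UMI there is worth 0.151 per 10000 and a count of 0 allows up to 0.454. The 10 smooth muscle markers in Bnc2-only cells summed to 184, 21.3 and 8.74 in mice 1, 2 and 3, and those markers led in 32.1% of the Bnc2-only cells of mouse 1. Each comparison below therefore also gives the number of calls without mouse 1. All tests compare sums per mouse, with the mouse as a block, by limma-trend on log2(UMIs per 10000 + 0.1) with Benjamini-Hochberg adjustment over all genes with at least 20 UMIs.

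The first comparison asks how the guidance genes of Nos1-only and Chat-only cells differ. Epha5, the ephrin-A receptor, stood at 8.97, 5.09 and 5.08 UMIs per 10000 in Nos1-only cells of mice 1, 2 and 3 and at 0.605, 1.69 and 2.64 in Chat-only cells. Every Nos1-only value lay above every Chat-only value, with a ratio of the means of 3.88. The Chat-only value of mouse 1 comes from 16 cells, and without mouse 1 the ratio was 2.35 and the log2 difference 1.23. Epha5 was in 77.8% ± 11.4 (SD, n = 3) of Nos1-only cells against 31.2% ± 11.5 of Chat-only cells, and in 70.3% ± 10.7 against 20.2% ± 11.2 of the 727 and 132 cells so called after thinning to 3000 UMIs. Its log2 difference was 2.05 with SE 0.503, higher in 3 of 3 mice, and did not pass (adjusted p = 0.237 by limma-trend). Under 5 of 14 alternatives Epha5 did pass, limma-voom, 2 UMIs for a positive cell and each of the fits without a mouse. The fits at 2 UMIs, without mouse 2 and without mouse 3 gave all genes the same spread.

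No member passed limma-trend, among 60 tested, while 9 had fewer than 20 UMIs in these cells. Over all 12901 genes tested, 0.0853% were called higher in Nos1-only and 0.093% higher in Chat-only cells, so hardly any gene passed. An unadjusted p under 0.05 was reached by 14 of the 60 members (23.3%) and by 11.4% of all genes. Higher in Nos1-only cells in all 3 mice were 15 members (25%) and 17.9% of all genes. Higher in Chat-only cells in all 3 mice were 17 members (28.3%) and 19.6% of all genes. The same direction in 3 of 3 mice was thus common among all genes. Groups without overlap were not counted over all genes in any comparison. The lowest adjusted p among the members was that of Plxna2 (adjusted p = 0.091 by limma-trend). With limma-voom, which weighs each value by its count, 4 members were called higher in Nos1-only cells (4.98% of all genes) and 13 higher in Chat-only cells (7.22% of all genes). Without mouse 1, limma-trend called 7 of 58 members higher in Nos1-only (7.99% of all genes) and 14 higher in Chat-only cells (9.07%). The median log2 difference was 0.08 over the members and 0.03 over all genes, and with limma-voom -0.17 and -0.13.

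Receptors higher in Nos1-only cells by limma-voom were Epha5, Epha8 and Nrp1, and the only ligand was Sema3b. Those of them that the naming rule does not reach were chosen after their values were seen. Epha8, a second ephrin-A receptor, stood at 0.280, 0.270 and 0.287 UMIs per 10000 in Nos1-only cells against 0, 0.0537 and 0.063 in Chat-only cells (log2 difference 1.48, SE 0.275). In mouse 1 the 0 allows up to 0.454, above the Nos1-only value, so Epha8 rests on mice 2 and 3. Sema3b, a secreted semaphorin, stood at 0.330, 0.250 and 0.222 against 0, 0.148 and 0.0990 (log2 difference 1.10, SE 0.384, and 0.60 without mouse 1), with the same limit in mouse 1. Nrp1 stood at 0.495, 0.782 and 0.931 against 0.454, 0.369 and 0.666, higher in Nos1-only cells within each mouse although the groups overlapped. Its Chat-only value of mouse 1 is 3 UMIs.

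Higher in Chat-only cells by limma-voom were all 3 Slits, 3 of the Unc5 receptors, and Plxna2, Plxna4, Robo2, Sema6d, Epha7, Epha10 and Efna3. Epha10 and Efna3 rest on few UMIs, 11 each in Nos1-only cells and 12 and 16 in Chat-only cells. Efna3 had 0 in mouse 1 in both classes, and Epha10 passed under limma-voom only. Plxna2, a plexin that binds semaphorin 6 and, with neuropilins, class 3 ligands, stood at 0.115, 0.215 and 0.315 in Nos1-only cells and at 0.454, 0.684 and 1.11 in Chat-only cells. The values of Plxna2 did not overlap, with a ratio of the means of 3.48 (3.38 without mouse 1) and a log2 difference of -1.41 (SE 0.193). Unc5c, a repulsive netrin receptor, stood at 0.0825, 0.0598 and 0.120 against 0.454, 0.275 and 0.522 (log2 difference -1.44, SE 0.247, ratio of the means 4.77, and 4.44 without mouse 1). The Chat-only values of mouse 1 for both genes are 3 UMIs, so that mouse adds little to either. Slit2 stood at 0.478, 0.712 and 0.770 against 1.21, 1.29 and 1.51, again without overlap (log2 difference -0.95, SE 0.154). Slit1 was at 0.033, 0.107 and 0.127 against 0, 0.450 and 0.558, so the direction held in 2 of 3 mice and the third had too few UMIs to tell.

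Plxna4 and Robo2 were higher in Chat-only cells by limma-voom but depend on the cells included. Robo2 stood at 1.36 in Chat-only cells of mouse 1 against 0.376 and 0.450 in mice 2 and 3, and Plxna4 at 1.21 against 0.483 and 0.531. In Nos1-only cells Robo2 stood at 0.264, 0.212 and 0.315 and Plxna4 at 0.264, 0.270 and 0.380. Without mouse 1 limma-trend called both genes higher in Chat-only cells, beside 9.07% of all genes. With 2 UMIs for a positive cell their log2 differences turned to 0.026 for Robo2 and 0.33 for Plxna4, from -1.01 and -0.97. The markers of the Nmu sensory list summed to 8.92 in the Chat-only cells of mouse 1 and to 1.85 and 2.75 in mice 2 and 3. Their part was not tested. Without the Nmu-positive cells, an alternative chosen after seeing the data, the log2 differences of Robo2 and Plxna4 were -0.16 and -0.57. Summed by family, Ephs held 10.4, 6.38 and 6.25 in Nos1-only and 2.12, 3.03 and 4.15 in Chat-only cells. The Slits held 0.643, 0.909 and 1.06 against 1.51, 2.11 and 2.39, and the Unc5 receptors 0.330, 0.295 and 0.455 against 1.21, 0.798 and 1.12. The plexins held 2.31, 2.37 and 2.56 against 3.48, 3.21 and 3.92, and the netrins 0.874, 0.416 and 0.524 against 0.151, 0.396 and 0.315. The groups did not overlap in any of these 5 sums. The netrins were close in mouse 2, and their Chat-only sum in mouse 1 is 1 UMI, so their difference rests on mouse 3. The ephrins did not overlap either, at 1.90, 1.83 and 1.85 against 1.21, 1.56 and 1.76. Overlap was seen in the semaphorins, at 4.09, 3.77 and 3.84 against 3.78, 3.84 and 4.19. The neuropilins (2.36, 2.23 and 2.50 against 1.06, 2.20 and 2.95) and Robos (0.495, 0.534 and 0.558 against 2.12, 0.490 and 0.603) overlapped as well. Dcc was at 0 in all Chat-only cells and in the Nos1-only cells of mouse 1. The difference of the Ephs was that of Epha5, since the other 13 Ephs summed to 1.43, 1.29 and 1.18 in Nos1-only and 1.51, 1.34 and 1.51 in Chat-only cells. Markers of other cell types moved with this comparison, since the smooth muscle markers summed to 15.9 to 39.0 in Nos1-only and 9.86 to 24.9 in Chat-only cells and the glial markers to 20.3 to 30.8 and 12.9 to 20.2. The fibroblast markers summed to 10.4, 3.77 and 2.43 in Nos1-only against 5.59, 2.05 and 1.97 in Chat-only cells of mice 1, 2 and 3, and their part was not tested. With only the neuronal marker cells, the log2 differences were 2.08 for Epha5, 1.60 for Epha8, -1.55 for Plxna2, -1.32 for Unc5c and -0.94 for Slit2, close to those of all cells.

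**Figure D2:**
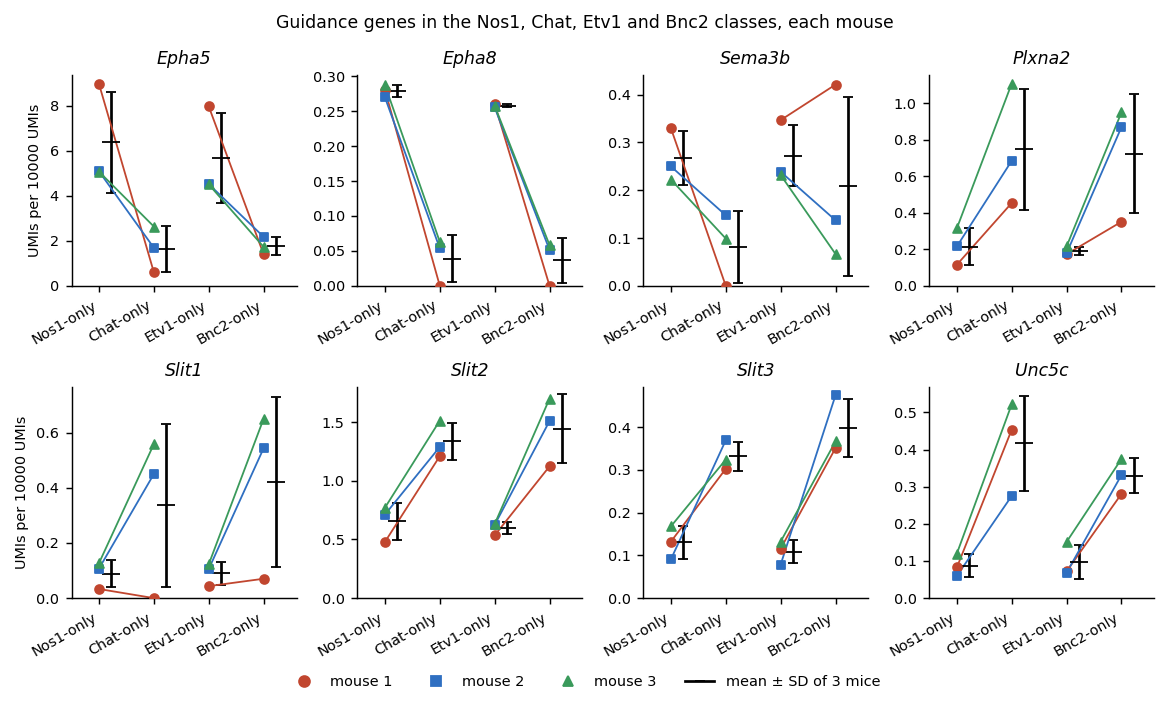
Levels of 8 guidance genes in UMIs per 10000 UMIs in Nos1-only, Chat-only, Etv1-only and Bnc2-only cells. Each symbol is a mouse, lines join the classes compared within a mouse, and the black bars are the mean ± SD of 3 mice. Epha5 lies at 4.51 or above in the Nos1-only and Etv1-only cells and at 2.64 or below in the other classes, and Slit2 shows the opposite order.

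The second comparison asks the same of the branches marked by Etv1 and Bnc2. Slit2, the Robo ligand, stood at 0.534, 0.624 and 0.631 UMIs per 10000 in Etv1-only cells of mice 1, 2 and 3 and at 1.12, 1.51 and 1.70 in Bnc2-only cells, with no overlap and a ratio of the means of 2.42. Its log2 difference of -1.13 (SE 0.146) had the lowest adjusted p among the members, and did not pass (adjusted p = 0.0739 by limma-trend, lower in Etv1-only in 3 of 3 mice). Slit3 stood at 0.116, 0.0784 and 0.132 against 0.351, 0.474 and 0.366 (log2 difference -1.25, SE 0.227), and its groups did not overlap either. Slit1 stood at 0.0433, 0.105 and 0.122 against 0.0702, 0.543 and 0.650 (log2 difference -1.22, SE 0.344), close together in mouse 1 and apart in mice 2 and 3. The 3 Slits summed to 0.693, 0.808 and 0.886 in Etv1-only and 1.54, 2.53 and 2.71 in Bnc2-only cells. At least 1 Slit was detected in 40.6% ± 13.6 (SD, n = 3) of Etv1-only and 71.2% ± 24.6 of Bnc2-only cells, and in 21.2% ± 1.46 and 54.1% ± 8.57 of the 848 and 233 cells so called after thinning to 3000 UMIs.

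No member passed limma-trend among the 58 tested, with 11 below 20 UMIs. The background over 13052 genes was 0.153% called higher in Etv1-only and 0.0766% higher in Bnc2-only cells. At an unadjusted p under 0.05 lay 14 members (24.1%) and 11.4% of all genes. In all 3 mice, 13 members (22.4%) and 18.4% of all genes were higher in Etv1-only cells. Likewise 12 members (20.7%) and 16.9% of all genes were higher in Bnc2-only cells in all 3 mice. With limma-voom 4 members were higher in Etv1-only cells (2.94% of all genes) and 10 in Bnc2-only cells (2.91%). Without mouse 1 limma-trend called 13 in each direction, beside 12.5% of all genes in each, in a fit that gave all genes the same spread. The members called by limma-voom were Epha5, Epha8, Nrp1 and Robo1 in Etv1-only cells, and in Bnc2-only cells the 3 Slits, Unc5a, Unc5c, Unc5d, Plxna2, Plxnd1, Epha4 and Efna3. Efna3 rests on 15 UMIs in Etv1-only and 19 in Bnc2-only cells, with 0 in mouse 1 in both.

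Epha5 stood at 7.97, 4.52 and 4.51 in Etv1-only and at 1.40, 2.18 and 1.73 in Bnc2-only cells (log2 difference 1.59, SE 0.277, adjusted p = 0.131 by limma-trend, higher in 3 of 3 mice). It passed under 7 of 14 alternatives, limma-voom, the cells thinned to 3000 UMIs, the cells without glial or smooth muscle markers in the lead, 2 UMIs for a positive cell and each fit without a mouse, of which those without mouse 1 and without mouse 3 gave all genes the same spread. Epha8 stood at 0.260, 0.255 and 0.258 against 0, 0.0514 and 0.0583 (log2 difference 1.42, SE 0.226), and the 0 of mouse 1 allows up to 0.210. Plxna2 stood at 0.173, 0.179 and 0.216 against 0.351, 0.869 and 0.949 (log2 difference -1.42, SE 0.264). Robo1, a Slit receptor, stood at 0.202, 0.304 and 0.264 in Etv1-only cells against 0.140, 0.120 and 0.0666 in Bnc2-only cells. In mouse 1 the Bnc2-only value of Robo1 lies under the 0.210 of 3 UMIs, as does that of Slit1, so both rest on mice 2 and 3. Robo2 stood at 0.202, 0.212 and 0.267 against 0.210, 0.251 and 0.242, with overlapping groups. Epha4, which binds ephrins of both the A and B kinds, stood at 0.159, 0.190 and 0.145 against 0.351, 0.286 and 0.408. Beside the smooth muscle signal in the Bnc2-only cells of mouse 1, the neuronal markers summed to 83.9 there and to 128 and 129 in mice 2 and 3, and the 6 fibroblast markers to 24.8 in those cells against 10.3 in the Etv1-only cells of that mouse. The glial markers also moved with this comparison, at 25.3, 32.7 and 25.2 in Etv1-only and lower in the Bnc2-only cells of each mouse, from 12.2 to 23.3. With only the neuronal marker cells, the log2 differences were 1.40 for Epha5, 1.58 for Epha8, -1.58 for Plxna2, -1.35 for Slit3, -1.49 for Slit1 and -0.89 for Slit2.

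The classes were crossed to see which of the 2 divisions the levels follow, as a description with no test. Among Etv1-only cells, Epha5 stood at 10.2, 5.69 and 5.80 in those also Nos1-only and at 2.90, 0.973 and 0.713 in those with neither Nos1 nor Chat. Among Bnc2-only cells with neither, Epha5 stood at 1.65, 2.37 and 0.750. Glial markers led in 47.9%, 37.9% and 35.6% of the Etv1-only cells with neither gene, against 6.48%, 12.6% and 11.8% of those also Nos1-only and 16.7%, 8.57% and 7.5% of the Bnc2-only cells with neither. In the neuronal marker cells alone Epha5 stood at 11.6, 6.35 and 6.58 in Etv1-only cells that were Nos1-only, at 5.47, 1.77 and 1.37 in Etv1-only cells with neither, and at 3.78, 2.998 and 0.824 in Bnc2-only cells with neither. In each mouse Epha5 was highest in the Etv1-only cells with Nos1, and the order of the groups with neither differed between the mice. In Bnc2-only neuronal marker cells with Nos1, of which mouse 1 had none, Epha5 stood at 2.82 in mouse 2 and 0.231 in mouse 3, below the Etv1-only cells with Nos1. Slit2 stood at 0.520, 0.698 and 0.746 in cells both Etv1-only and Nos1-only, and at 0.528, 0.374 and 0.442 in Etv1-only cells with neither. In Bnc2-only cells with neither gene Slit2 stood at 1.16, 1.57 and 1.48, above every one of these Etv1-only values, and in neuronal marker cells alone at 0.994, 1.41 and 1.37 against at most 0.815. In the 21 and 15 Bnc2-only cells with Nos1 of mice 2 and 3 it stood at 1.16 and 1.43. This cross and those with Chat-only had 2 cells each in mouse 1.

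**Figure D3:**
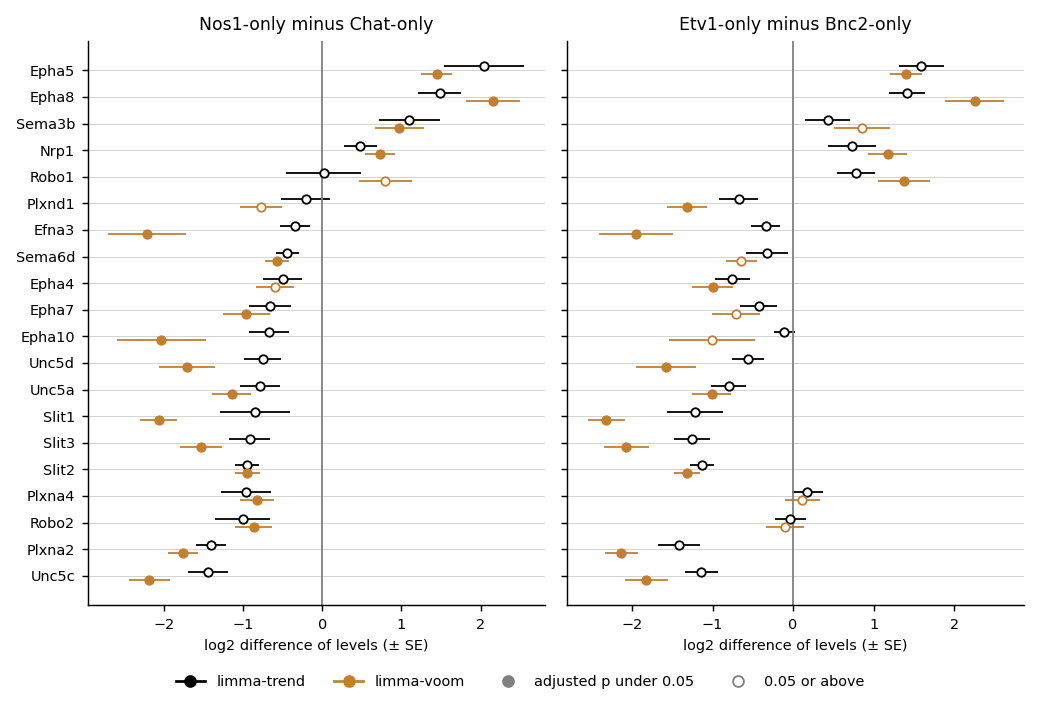
Log2 differences (± SE) of the 20 members called by limma-voom in either comparison, Nos1-only minus Chat-only on the left and Etv1-only minus Bnc2-only on the right. Black points are limma-trend and orange points limma-voom, and filled points have an adjusted p under 0.05. No black point is filled, and Plxna4 and Robo2 lie below 0 on the left and near 0 on the right.

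The third comparison sets the Nmu-positive cells against all cells with 0 UMIs of Nmu. Robo2, the Slit receptor, stood at 1.94, 0.861 and 0.983 UMIs per 10000 in Nmu-positive cells of mice 1, 2 and 3 and at 0.294, 0.254 and 0.271 in the others. The groups of Robo2 did not overlap, with a ratio of the means of 4.63 and a log2 difference of 1.79 (SE 0.231, adjusted p = 0.102 by limma-trend, higher in 3 of 3 mice). It passed under 7 of 13 alternatives, limma-voom and each fit without a mouse among them, where the fit without mouse 3 gave all genes the same spread. Robo2 was in 35.0% ± 9.53 (SD, n = 3) of Nmu-positive and 14.7% ± 4.99 of Nmu-negative cells, and in 30.7% ± 5.18 and 7.60% ± 0.518 of the 100 and 1782 cells so called after thinning to 3000 UMIs. Plxna4, the receptor of class 3 semaphorins, stood at 2.13, 0.764 and 1.04 against 0.404, 0.333 and 0.387 (log2 difference 1.46, SE 0.249, adjusted p = 0.228 by limma-trend), and passed under 6 of 13 alternatives. Plxna4 was in 46.6% ± 16.4 of Nmu-positive and 18.4% ± 5.30 of Nmu-negative cells.

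No member passed limma-trend among the 61 tested, where 0.0219% of 13703 genes were called higher in Nmu-positive cells and 0% lower. At an unadjusted p under 0.05 lay 12 members (19.7%) and 6.75% of all genes. In all 3 mice, 8 members (13.1%) and 12.2% of all genes were higher in Nmu-positive cells. Likewise 13 members (21.3%) and 19.7% of all genes were lower there in all 3 mice. Limma-voom called 2 members higher, Robo2 and Plxna4, beside 1.1% of all genes, and none lower, beside 0.0073%. Without mouse 1 limma-trend called 2 members higher, beside 0.833% of all genes, and none lower, beside 0.0826%. Ntn4, a netrin of basement membranes, stood at 0, 0.194 and 0.243 in Nmu-positive against 0.551, 0.348 and 0.350 in Nmu-negative cells, and a 0 in mouse 1 allows up to 0.182. Epha5 stood at 0.851, 2.40 and 2.67 against 5.20, 3.64 and 3.44, and Slit2 at 0, 0.886 and 0.630 against 0.800, 0.807 and 1.01. Epha5 was lower in Nmu-positive cells in every mouse and Slit2 was not, and the gap in both was widest in mouse 1. Without mouse 1 the log2 differences were -0.50 for Ntn4, -0.47 for Epha5 and -0.24 for Slit2, from -1.23, -1.14 and -1.22.

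The Nmu-positive cells of mouse 1 differed from those of the other mice in several members at once. Nrp2 stood there at 0.304 against 1.37 and 1.16, and Nrp1 at 0.0608 against 0.619 and 0.784. Robo1 stood at 1.03 against 0.243 and 0.519. The 6 markers of the Nmu sensory list, Nmu among them, summed to 8.01 to 31.4 in Nmu-positive and 0.714 to 1.15 in Nmu-negative cells. Pooled over the mice, Calcb was in 49.5% of Nmu-positive cells, Cbln2 in 37.5%, Nog in 27%, Cysltr2 in 18% and Dlx3 in 5%. In Nmu-negative cells those shares were 14.6%, 6.34%, 2.53%, 1.67% and 0.538%. Nos1 was in 48.5% of Nmu-positive against 52.0% of Nmu-negative cells, and Slc18a3 in 61% against 38.1%. A UMI of Nmu thus does not by itself mark a sensory neuron. Glial marker cells made up 0%, 17.5% and 16.9% of the Nmu-positive cells of mice 1, 2 and 3, and their part in the differences between the mice was not tested. The neuronal markers summed to 223, 131 and 142 in Nmu-positive against 118, 118 and 114 in Nmu-negative cells. The smooth muscle markers were lower in the Nmu-positive cells of mouse 1, at 36.8 against 93.8, and higher in mice 2 and 3, at 25.4 and 20.9 against 19.9 and 12.9. The 5 markers of interstitial cells of Cajal summed to 2.13, 0.558 and 0.983 against 0.720, 0.393 and 0.441, and their part was not tested. With only the neuronal marker cells the log2 difference was 1.95 for Robo2 and 1.57 for Plxna4.

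**Figure D4:**
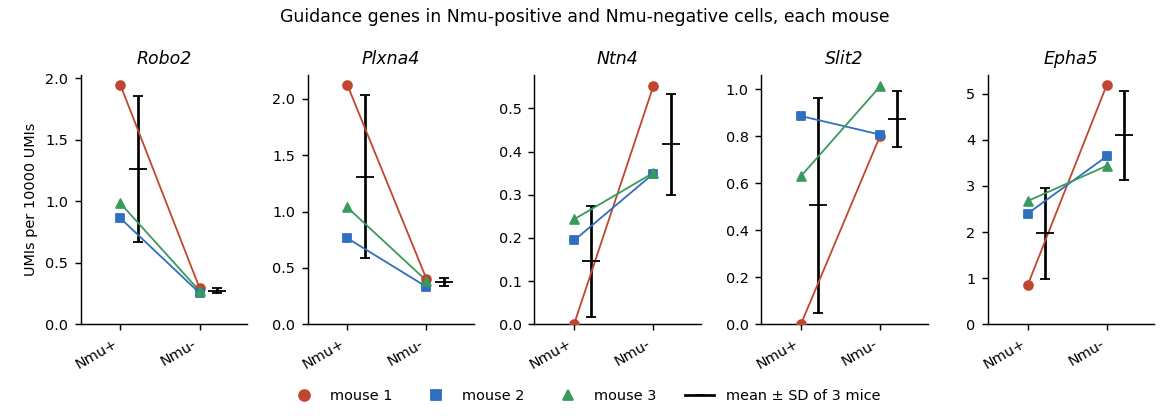
Levels in UMIs per 10000 UMIs of the 5 members with the largest absolute log2 difference between Nmu-positive (Nmu+) and Nmu-negative (Nmu-) cells. Symbols joined by a line are a mouse, and black bars are the mean ± SD of 3 mice. Robo2 is at 0.861 or above in Nmu-positive and at 0.294 or below in Nmu-negative cells, and Slit2 overlaps.

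Other genes of guidance signalling were taken from 5 lists. Of 22 further ligands, receptors and co-receptors, 20 or 21 were tested in each comparison. In the Etv1 and Bnc2 comparison 1 passed limma-trend, higher in Etv1-only cells, beside 0.153% of all genes. None passed higher in Bnc2-only cells, beside 0.0766%. None passed in the other comparisons, beside 0.0853% and 0.093% of all genes for Nos1-only and Chat-only, and 0.0219% and 0% for Nmu-positive and Nmu-negative. Limma-voom called 1 higher in Nos1-only and 7 higher in Chat-only cells, beside 4.98% and 7.22% of all genes. It called 3 higher in Etv1-only and 1 higher in Bnc2-only cells, beside 2.94% and 2.91%, and 1 higher in Nmu-positive cells, beside 1.1%. Without mouse 1, limma-trend called 2 and 6, 6 and 5, and 1 and 0 of them in the 3 comparisons, beside the shares of all genes given above for those fits. Ntng1, a membrane-bound netrin-G, was higher in Etv1-only cells, at 1.17, 0.810 and 1.62 UMIs per 10000 against 0.210, 0.143 and 0.175 in Bnc2-only cells (log2 difference 2.19, SE 0.205, adjusted p = 0.0301 by limma-trend, 3 of 3 mice). Lrrc4c, the receptor of netrin-G1, stood at 0.939, 0.629 and 0.670 against 0.421, 0.269 and 0.183 in the same cells, with a log2 difference of 1.14 that did not pass limma-trend but passed limma-voom, and was named after its values were seen. Met, the receptor of hepatocyte growth factor, was the gene called by limma-voom in Nmu-positive cells, at 0.365, 0.0849 and 0.121 against 0.0588, 0.00839 and 0.00908.

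Of the effectors, 16 of 18 for semaphorins and plexins, all 9 for Slits and Robos, all 10 for netrins and 9 or 10 of 10 for ephrins and Ephs could be tested in each comparison. None of those tested passed limma-trend with all 3 mice, beside the shares of all genes given above. Between Nos1-only and Chat-only cells limma-voom called 3 semaphorin effectors and 1 ephrin effector higher in Nos1-only cells, beside 4.98% of all genes. It called 1 semaphorin, 2 Slit and 3 ephrin effectors higher in Chat-only cells, beside 7.22% of all genes, and 0 netrin effectors in either direction. In the Etv1 and Bnc2 comparison it called Rnd3 and Dpysl3 higher in Etv1-only cells, beside 2.94% of all genes, and Ngef and Kalrn higher in Bnc2-only cells, beside 2.91%, and it called 0 effectors in the Nmu comparison. Without mouse 1, limma-trend called 3 semaphorin, 1 Slit, 2 netrin and 1 ephrin effectors higher in Etv1-only cells and 4, 3, 1 and 4 higher in Bnc2-only cells, beside 12.5% of all genes in each direction. Between Nos1-only and Chat-only cells it then called 3 semaphorin and 1 ephrin effectors higher in Nos1-only cells (7.99% of all genes), 3 semaphorin, 2 Slit and 3 ephrin effectors higher in Chat-only cells (9.07%), and 0 effectors in the Nmu comparison. The genes that follow were chosen after their values were seen. Rnd3, a small GTPase that acts with plexins, stood at 1.80, 0.762 and 0.893 in Nos1-only against 0.756, 0.450 and 0.432 in Chat-only cells. Ngef, the exchange factor also called ephexin that acts under EphA receptors, stood at 0.0165, 0.0272 and 0.0171 against 0, 0.195 and 0.225. Chn2, a Rac-inactivating protein of the chimaerin family, stood at 0.115, 0.0706 and 0.0582 against 0, 0.00671 and 0.0180, so these effectors differed in opposite directions in mice 2 and 3. In mouse 1 both were at 0 in Chat-only cells, where that count allows up to 0.454.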

How the data were processed

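Single-cell RNA-seq was read in 3 libraries of sorted tdTomato-positive cells, 1 per Ednrb-/- mouse. Reads were aligned to mm10 and counted by Cell Ranger, per the submitters' processing notes. The authors kept cells with limits on genes and mitochondrial share, removed genes held to be confounding and non-neuronal cells, and deposited natural log values, ln(1 + UMIs per 10000 UMIs of a cell). Neither the Cell Ranger version nor its annotation is given in the sources used here. Columns were matched to mice by their names, and 0 columns lay outside them.

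The smallest value above 0 of a cell was taken as 1 UMI, which made 100% of the 6435281 values above 0 whole within 1e-06. UMIs were summed per mouse and class, and classes of the same mouse were compared with limma 3.58.1 in R 4.3.3 (lmFit, eBayes with trend) on log2(UMIs per 10000 + 0.1) with the mouse as a block, over genes with at least 20 UMIs, two-sided, with Benjamini-Hochberg adjustment at 0.05. A fold on this scale is understated for low genes. The block is a real pairing, since both classes came from the same animal and library. The p-values rest on the spread between the mice, which eBayes draws toward the spread of other genes. For Nos1-only and Chat-only the median degrees of freedom were 5.83 with all mice and 15.0 without mouse 1. Part of the spread is thus borrowed from other genes, and more so without mouse 1. An exact paired test of 3 mice cannot go below 0.25 and was not used. Cells were thinned to 3000 UMIs to compare shares. Intervals of shares are 95% exact binomial and cover counting error only, and a count of 0 allows up to 3 UMIs. Python 3.11.15 was used for the sums, and gene positions came from GENCODE M21, built on GRCm38.

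The members, classes and gene lists were chosen with earlier results of these data known. Genes are named if they passed the test, were among the 10 highest over all cells or among the 5 with the largest absolute log2 difference in a comparison, define the classes, or were called in a pathway list (up to 3, lowest p first). Any other gene whose values are given was chosen after its values were seen. Alternatives changed the pseudocount, the filter, the block, the positive threshold, the depth, the cells, the summary and the variance model, and left out each mouse. The alternative without Nmu-positive cells was added after seeing the data. No doublet caller was run here.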

Additional observations from a re-analysis of the deposited data

How the results depend on the processing

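The number of calls changed with the variance model and the mice included. Over 36 log2 differences of named members, 392 values kept their direction and their side of the threshold, 88 passed it where limma-trend had not, and 2 reversed. The reversed values were those of Plxna4 (0.33) and Robo2 (0.026) between Nos1-only and Chat-only cells, with 2 UMIs for a positive cell, and the cause was not tested. Of the 88, 33 came from limma-voom and 32 from the fit without mouse 1. The named members of the Nos1 and Chat and the Etv1 and Bnc2 comparisons are those that limma-voom called. The 33 was thus fixed by that choice and does not measure how the calls depend on the model.

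The number of members called was 0 in each comparison by limma-trend. Between Nos1-only and Chat-only cells it was 1 of 56 with 2 UMIs for a positive cell, beside 242 of 12348 genes. By limma-voom it was 17 of 60, beside 1573 of 12901 genes. Without mice 1, 2 and 3 in turn it was 21 of 58, 1 of 52 and 1 of 55. All genes called in those fits were 2163 of 12686, 135 of 11525 and 183 of 12230. Between Etv1-only and Bnc2-only cells the members called were 1 of 58 with 2 UMIs, beside 40 of 12660 genes. They were 1 of 47 thinned to 3000 UMIs, beside 33 of 10826 genes. Without glial or smooth muscle cells they were 1 of 58, beside 120 of 12471, and by limma-voom 14 of 58, beside 764 of 13052. Without mice 1, 2 and 3 in turn they were 26 of 58, 1 of 51 and 2 of 54. All genes called in those fits were 3195 of 12785, 36 of 11717 and 165 of 12450. In the Nmu comparison the members called were 7 of 61 with 2 UMIs, beside 412 of 13590 genes, and 2 of 52 thinned, beside 60 of 11949. They were 1 of 60 without glial or smooth muscle cells, beside 37 of 13049, and 2 of 61 by limma-voom, beside 152 of 13703. Without mice 1, 2 and 3 in turn they were 2 of 60, 2 of 55 and 5 of 58. All genes called in those fits were 122 of 13318, 64 of 12528 and 169 of 13078. Leaving out mouse 1 gave the 21 and the 26. Several of these fits gave all genes the same spread, those without mouse 2, without mouse 3 and at 2 UMIs for Nos1-only and Chat-only, without mouse 1 and without mouse 3 for Etv1-only and Bnc2-only, and without mouse 3 for Nmu.

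Over all genes, 23 were called between Nos1-only and Chat-only cells, against 5 with a pseudocount of 0.02, 6 with no filter, 242 with 2 UMIs, 12 without glial or smooth muscle cells, 35 with the mean of cells, 1573 by limma-voom and 135 to 2163 without a mouse. Between Etv1-only and Bnc2-only cells 30 were called, against 6 with no filter, 120 without glial or smooth muscle cells, 764 by limma-voom and 36 to 3195 without a mouse. In Nmu-positive cells 3 were called, against 1 with a pseudocount of 0.5, 0 with no filter, 412 with 2 UMIs, 60 thinned, 37 without glial or smooth muscle cells, 152 by limma-voom and 64 to 169 without a mouse. Without the Nmu-positive cells, added after seeing the data, 28 and 36 genes and 0 members were called in the other comparisons.

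With no replicate block for the mouse, 11, 29 and 1 genes were called in the 3 comparisons against 23, 30 and 3 with it, and 0 members in each. Of the shares of the 10 highest members over all cells, 22 of 60 values moved by more than the SD of the mice. Depth limits the classes of mouse 1 most, and a gene at or near 3 UMIs there rests on mice 2 and 3.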

Other observations

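Ligands and receptors of the same system were found in the same cell, given here as values with no test. An ephrin-A and an EphA receptor were detected together in 21.2%, 43.0% and 40.4% of all cells of mice 1, 2 and 3, and in 36.9%, 52.7% and 46.5% of Nos1-only cells against 6.25%, 35.8% and 39.8% of Chat-only cells. The Chat-only share of mouse 1 is over 16 cells, and no shares in thinned cells are given here. Epha5 alone was detected in 77.8% of Nos1-only and 31.2% of Chat-only cells on average over the mice. An ephrin-B and an EphB receptor were found together in 309 of the 2060 cells, a class 3 semaphorin and a neuropilin in 15.5%, 35.2% and 33.4% of cells, and a netrin with an Unc5 receptor or Dcc in 4.24%, 9.43% and 10.7%. Each of these shares, where given by mouse, was lowest in the shallowest library, that of mouse 1.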
